A study of Rattus norvegicus with 12 samples.

Results

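The genes described here are 43 that encode the machinery of DNA replication, from the proteins that license origins to those that rebuild chromatin behind the fork. They were chosen by symbol from a deposited table of 19230 gene rows, and all 43 were found in it. For 39 of them the row holds that gene alone. The rows of Mcm7, Gins4, Orc1 and Pcna are merged with Mir25, Golga7, Cc2d1b and Tmem230 in that order, so such a value may come from either gene. Every one of the 43 passed the filter on low values in each comparison, so none is left out of the counts below.

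Total lung and endothelial cells (ECs) of Sprague-Dawley rats were profiled by RNA-seq, with 3 libraries in each of 4 groups. Lung of wild-type (WT) rats came from normoxia at day 0 and from day 4 of SuHx, which pairs SU5416 (Sugen), a VEGF receptor inhibitor, with hypoxia to model pulmonary arterial hypertension. The other SuHx group is day 4 lung labelled Ahr-KO, from rats that lack the aryl hydrocarbon receptor (AhR) by their label, and its normoxia counterpart was not analysed here. The ECs were WT and in normoxia, with the day given as 4 in the labels and as 0 in the column names. The labels do not say how the knockout was made, how the ECs were isolated or whether the 3 libraries of a group are separate animals, so p-values measure the spread between these libraries. With no lung given SU5416 or hypoxia alone, these parts of SuHx cannot be told apart, and day cannot be told apart from treatment.

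DNA replication starts at origins where the origin recognition complex, Cdc6 and Cdt1 load the Mcm2 to Mcm7 ring, the core of the replicative helicase, in G1. At the G1/S boundary E2F transcription factors switch on many of these genes, and cyclin-dependent kinases, with cyclin E among their partners, help to turn loaded rings into active helicases bound by Cdc45 and GINS. Primase and the polymerases then copy both strands, held by the PCNA clamp, while thymidylate synthase, ribonucleotide reductase and thymidine kinase supply deoxynucleotides. Most cells of a healthy adult lung are out of cycle, and many of these genes are transcribed mainly in cells about to enter or passing through S phase.

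Libraries held 20.04 M to 28.6 M reads, read from the step between low values in each library. Values are given below as signal, an estimated read count divided by 1 factor per library, which serves to compare a gene between libraries and not 1 gene with another. Libraries carry the suffixes 0, 1 and 2 and are listed in that order, with the mean ± SD of the group (n = 3) in parentheses. Calls were made with limma where the p adjusted over all tested genes by Benjamini-Hochberg was under 0.05, and log2 changes are differences of group means on log2(signal + 1), ± SE. Ahr mRNA itself gave 1996, 3073 and 1739.6 in WT SuHx lung against 2515, 2523 and 1800.0 in SuHx lung with the Ahr-KO label, which did not set these groups apart (adjusted p = 0.966), and the labels do not say which part of Ahr was deleted, so this value may check nothing. Cyp1a1, a target gene of AhR, gave 65459, 68888 and 75070.5 in WT SuHx lung but 3.87, 5.31 and 5.32 in the lungs labelled Ahr-KO. Normoxia 2 and Ahr-KO 2 stood apart by heart muscle genes, whose 11 summed rows reached 11674 and 25378 where the other normoxia lungs gave 1094 and 1389, the others labelled Ahr-KO 5721 and 7283 and the WT SuHx lungs 2365 to 3276.

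The first comparison, of WT SuHx with WT normoxia lung, addresses what SuHx changed by day 4. The replication genes were higher as a group: 33 of the 43 rose, none fell and 10 were not called. Among all 15234 tested genes, 7.08% were called higher and 6.39% lower. The median log2 fold change of the 43 was 1.01, or 2.01-fold, against -0.04 over all tested genes. All 43 estimates lay above 0, between 0.02 and 2.25. In 37 of the 43 every WT SuHx library was above every normoxia library, which held for 17% of all tested genes, and in 0 was it the reverse (19.7% of all). Over the 39 genes with a row of their own, 31 rose and the median was 1.12. Summed over those 39, the signal was 11728 to 13157 in normoxia, 22778 to 23467 in WT SuHx and 23486 to 26693 in SuHx labelled Ahr-KO. In bulk lung, a change in the number of cells in cycle and in RNA per cell cannot be told apart.

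**Figure D1:**
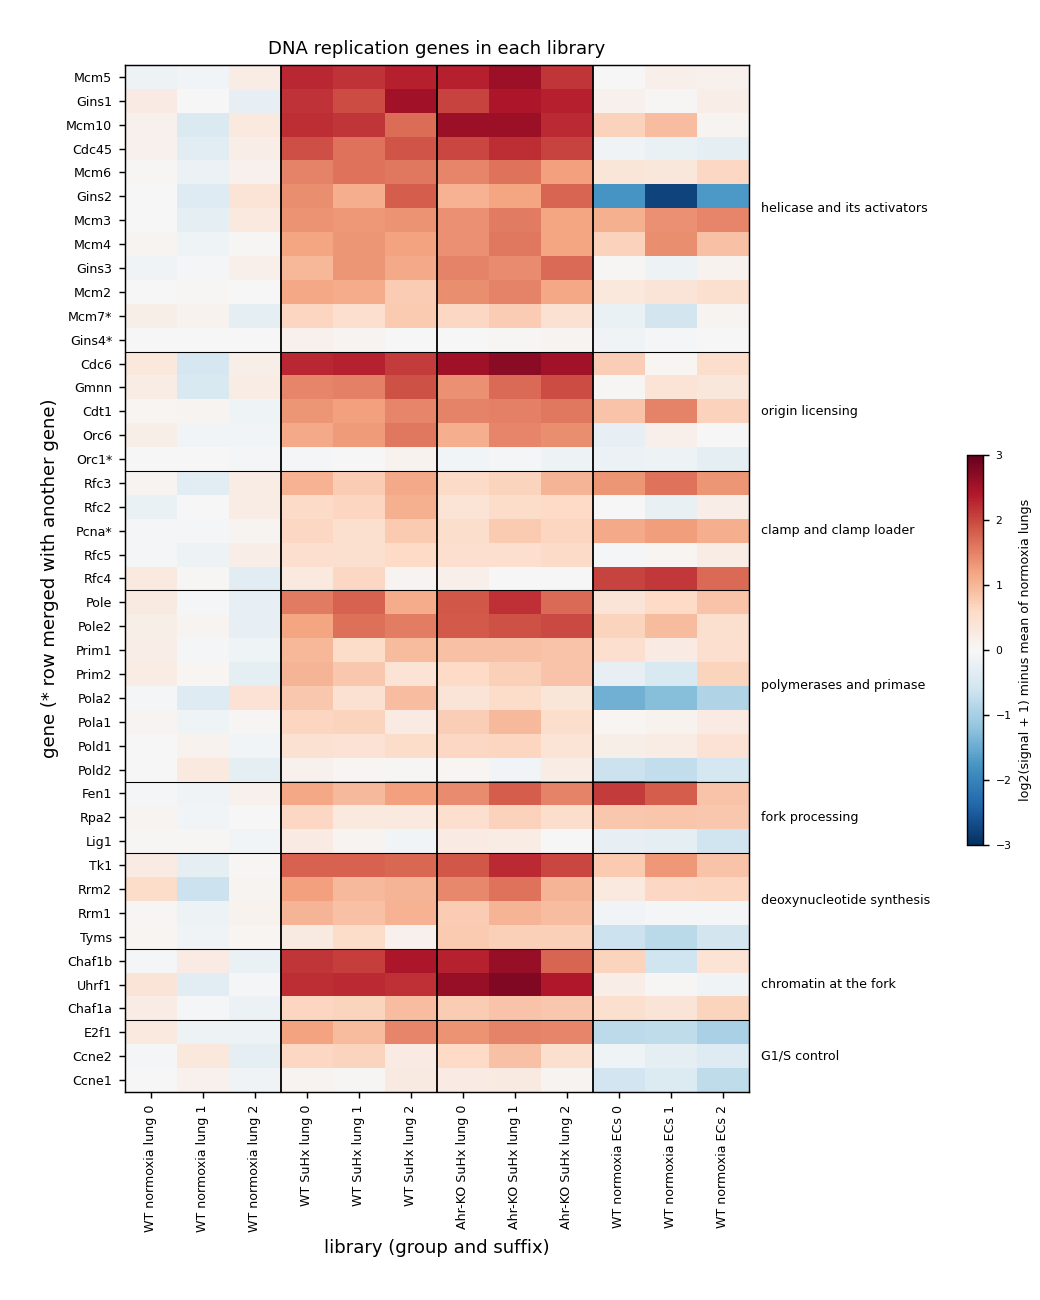
Signal of each of the 43 replication genes (vertical axis, by role) in each of the 12 libraries (horizontal axis, group and suffix), as log2(signal + 1) minus the gene's mean over the 3 normoxia lungs. Most genes are red in all 6 SuHx lungs, and the ECs show both directions. Gins4 and Orc1, both in merged rows, stay near 0 in SuHx lung, as do Pold2, Lig1 and Ccne1 in rows of their own.

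By role, the rises were 11 of 12 for the helicase and its activators (median log2 fold change 1.38), 4 of 5 for origin licensing (1.34), 4 of 5 for the clamp and its loader (0.63) and 6 of 8 for polymerases and primase (0.74). They were 1 of 3 for fork processing (0.40), 3 of 4 for deoxynucleotide synthesis (1.03), 3 of 3 for chromatin at the fork (2.21) and 1 of 3 for G1/S control (0.52). The 10 that were not called were Gins4, Orc1, Rfc4, Pola1, Pold2, Lig1, Rpa2, Tyms, Ccne1 and Ccne2. Differences between roles were not tested.

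E2F factors are known to bind many promoters of this pathway, and the RefSeq promoter windows (GRCr8 build, 250 bases before to 50 after each start) were searched for their letters. The letters were TTTCCCGC, TTTCGCGC, TTTGCCGC and TTTGGCGC on both strands, where a match on 1 strand can overlap a match on the other. A window was at hand for 36 of the 43 genes, in 38 windows, and Gins4, Ccne2, E2f1, Orc1, Cdc6, Rrm2 and Mcm4 had none. At least 1 match stood in 17 of the 38 windows (44.7%), against 716 of the 33469 windows of all genes (2.14%). Among windows in the GC range of the replication genes (45.7% to 73.3%) the share was 617 of 22814, or 2.70%. The following stretches are shown since they hold such letters, in capitals, next to genes that rose about 3-fold or more with SuHx (Gins1, Mcm5, Mcm6, Uhrf1) and next to genes not called in WT lung (Pola1, Tyms). Where the capitals run past 8 bases, matches on both strands overlap.
Gins1: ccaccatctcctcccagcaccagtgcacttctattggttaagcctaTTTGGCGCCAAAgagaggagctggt
Mcm5: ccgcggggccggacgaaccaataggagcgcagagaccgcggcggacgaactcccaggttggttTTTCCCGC
Mcm6: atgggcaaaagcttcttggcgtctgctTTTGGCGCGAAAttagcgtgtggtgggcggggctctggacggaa
Uhrf1: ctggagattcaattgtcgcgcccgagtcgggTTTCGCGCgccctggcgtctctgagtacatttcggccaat
Pola1: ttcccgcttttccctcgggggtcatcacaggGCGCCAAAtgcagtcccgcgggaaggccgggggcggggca
Tyms: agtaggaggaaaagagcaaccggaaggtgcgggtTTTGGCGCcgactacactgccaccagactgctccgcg
Counted from the start, with each written 5′ to 3′ on the strand of its gene, they lie at chr3:160184849-160184919 (plus strand, bases -71 to -1) for Gins1, chr19:13488742-13488812 (plus strand, bases -71 to -1) for Mcm5 and chr13:42404448-42404518 (minus strand, bases -166 to -96) for Mcm6. The others are chr9:1223056-1223126 (plus strand, bases -130 to -60) for Uhrf1, chrX:62342488-62342558 (minus strand, bases -203 to -133) for Pola1 and chr9:120776084-120776154 (minus strand, bases -71 to -1) for Tyms. A match describes letters, not a bound site.

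Among the 17 genes with E2F letters in a window, 13 rose with SuHx in WT lung, with a median log2 fold change of 1.33 (0.08 to 2.25). Of the 19 genes with a window but without these letters, 16 rose, with a median of 0.77 (0.07 to 2.22). The ranges overlap nearly whole: Mcm5, Gins1 and Uhrf1 lead the first set and Chaf1b, Mcm10 and Cdc45 the second. The CCAAT box, which NF-Y binds, stood on either strand of 24 windows (63.2%, against 37.5% of all windows). The AhR core letters GCGTG, searched on both strands, stood in 22 windows (57.9%, against 29.7%). Median GC content was 59.8% in the windows of these genes and 51.7% in all windows, and the part of GC in both shares was not tested.

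**Figure D2:**
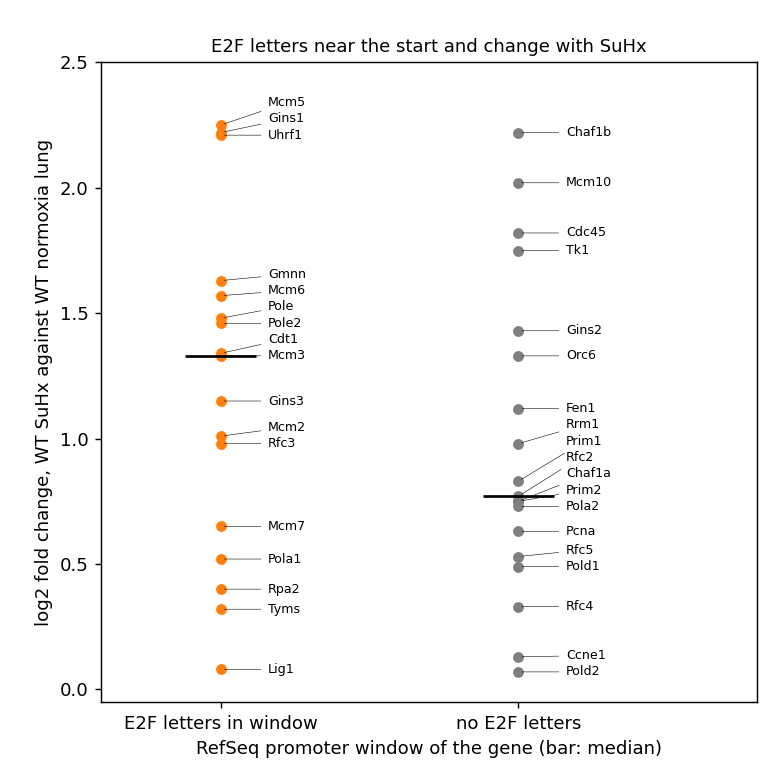
Log2 fold change of WT SuHx against WT normoxia lung (vertical axis) for the 36 replication genes with a promoter window, split by whether the window holds E2F letters (horizontal axis). Points are genes and bars are medians, 1.33 with the letters and 0.77 without, and the points of both sets cover nearly the same range.

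Of the helicase genes, Mcm5, a subunit of the Mcm ring, had the smallest adjusted p of its role. Its signal was 179.8, 189 and 233 (201 ± 28.5) in normoxia, 962, 895 and 1008 (955 ± 56.8) in WT SuHx and 1016, 1185 and 881 (1027 ± 152) in SuHx labelled Ahr-KO. Both SuHx groups lay clear of normoxia, and Mcm5 rose 4.76-fold in WT lung (log2 change 2.25 ± 0.14, adjusted p = 6.16e-05). The other ring subunits rose too, with lower estimates: Mcm6 2.96-fold, Mcm3 2.51-fold, Mcm4 2.37-fold, Mcm2 2.02-fold and the merged row of Mcm7 1.56-fold (adjusted p = 0.000286 to 0.0195). Differences between subunits were not tested. The GINS complex, which joins the ring in the active helicase, gave rises of 4.65-fold for Gins1, 2.70-fold for Gins2 and 2.22-fold for Gins3. Cdc45, which joins it too, rose 3.52-fold, and Mcm10, needed to activate the helicase, 4.04-fold.

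Gins4, in the row shared with Golga7, was the exception among the helicase genes. It gave 2046, 2066 and 2052 (2055 ± 10.2) in normoxia, 2264, 2164 and 2074 (2167 ± 94.9) in WT SuHx and 2052, 2115 and 2161 (2109 ± 54.8) in SuHx labelled Ahr-KO, so that the 9 lungs span a narrow range. The WT SuHx libraries lay just above normoxia without a call (log2 change 0.08 ± 0.07, adjusted p = 0.502). Golga7 encodes a Golgi-associated protein outside replication, and how much of this row's signal comes from each gene cannot be read from the table. The row that Orc1, the large subunit of the origin recognition complex, shares with Cc2d1b behaved likewise: 1719.9, 1698 and 1667 (1695 ± 26.7) in normoxia, 1654, 1690.4 and 1812 (1719 ± 82.7) in WT SuHx and 1614, 1623 and 1522 (1586 ± 55.7) in SuHx labelled Ahr-KO. WT SuHx overlapped normoxia there (log2 change 0.02 ± 0.08, adjusted p = 0.881), while all 3 libraries labelled Ahr-KO lay below normoxia without a call (log2 change -0.10 ± 0.08, adjusted p = 0.456).

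In origin licensing, Cdt1 loads the Mcm ring together with Cdc6, and geminin, from Gmnn, blocks Cdt1 once S phase has begun. Cdt1 gave 157, 158 and 137 (151 ± 12.2) in normoxia, 379, 352 and 418 (383 ± 33.5) in WT SuHx and 420.5, 431 and 451 (434 ± 15.6) in SuHx labelled Ahr-KO. No SuHx library came near the normoxia lungs, and Cdt1 rose 2.53-fold (log2 change 1.34 ± 0.13, adjusted p = 0.000389). Cdc6 rose 4.65-fold (adjusted p = 0.000551), the inhibitor gene Gmnn 3.10-fold (adjusted p = 0.00298) and Orc6, a small subunit of the origin recognition complex, 2.51-fold (adjusted p = 0.00288).

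Pcna, the sliding clamp, had 2394, 2386 and 2616 (2465 ± 130.4) in normoxia, 3771, 3465 and 4223 (3819.8 ± 381) in WT SuHx and 3566, 4273 and 3841 (3893 ± 356) in SuHx labelled Ahr-KO in the row it shares with Tmem230. All SuHx libraries exceeded all normoxia libraries, and Pcna rose 1.55-fold (log2 change 0.63 ± 0.10, adjusted p = 0.00545). The loader that opens the clamp is built from Rfc subunits, of which Rfc3 rose 1.97-fold, Rfc2 1.70-fold and Rfc5 1.44-fold (adjusted p = 0.00939, 0.0159 and 0.0263). Rfc4 was not called, with 1137, 950.3 and 742 (943 ± 197) in normoxia, 1145, 1424 and 984 (1184 ± 222) in WT SuHx and 1036, 916 and 925 (959 ± 66.8) in SuHx labelled Ahr-KO. Its groups overlap, since normoxia 0 was above WT SuHx 2 (log2 change 0.33 ± 0.17, adjusted p = 0.217).

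Among the polymerases, the subunits of polymerase epsilon, the leading strand enzyme, had the largest estimates. Pole2 gave 47.7, 44.3 and 35.3 (42.4 ± 6.44) in normoxia, 97.4, 134 and 124 (119 ± 18.9) in WT SuHx and 153, 160.3 and 170.2 (161 ± 8.52) in SuHx labelled Ahr-KO. The 3 groups line up without overlap, and Pole2 rose 2.75-fold (log2 change 1.46 ± 0.20, adjusted p = 0.00217), while the catalytic subunit gene Pole rose 2.79-fold (adjusted p = 0.00263). Prim1 and Prim2, the primase that lays down primers, rose 1.78-fold and 1.68-fold (adjusted p = 0.00545 and 0.0373), and Pold1, the catalytic subunit of polymerase delta, 1.40-fold (adjusted p = 0.0223). Pola2, the accessory subunit of polymerase alpha, was read at 823, 649 and 1161 (878 ± 260.1) in normoxia, 1487, 1164 and 1624 (1425 ± 236) in WT SuHx and 1108, 1245 and 1093 (1149 ± 83.8) in SuHx labelled Ahr-KO. Normoxia 2 came within a few units of WT SuHx 1 and lay above Ahr-KO 0 and 2. Pola2 rose 1.65-fold in WT lung (log2 change 0.73 ± 0.20, adjusted p = 0.043), a call lost in 8 of 18 alternative settings and library removals, not counting a limit on the fold change and a fit with the library suffix as a block.

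Pola1, the catalytic subunit of polymerase alpha, missed the call in WT lung (log2 change 0.52 ± 0.16, adjusted p = 0.0576) though its libraries did not overlap: 315, 273 and 307 (298 ± 22.4) in normoxia, 464, 476 and 356 (432 ± 66.1) in WT SuHx and 498, 586 and 429 (504 ± 79) in SuHx labelled Ahr-KO. Pold2, an accessory subunit of polymerase delta, stayed in 1 range throughout, at 342, 421 and 280.4 (348 ± 70.7) in normoxia, 378, 356 and 351 (362 ± 14.7) in WT SuHx and 356, 323 and 399 (359 ± 37.9) in SuHx labelled Ahr-KO, with a log2 fold change of 0.07 (95% interval -0.28 to 0.43).

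Fork processing was mixed. Fen1, the nuclease that trims Okazaki fragments, gave 205, 195 and 228 (209 ± 16.7) in normoxia, 467, 412 and 489 (456 ± 39.4) in WT SuHx and 564, 736 and 585 (628 ± 93.7) in SuHx labelled Ahr-KO. It rose 2.17-fold with no overlap (log2 change 1.12 ± 0.14, adjusted p = 0.00141). Lig1, the ligase that seals the same fragments, gave 394, 393 and 359 (382 ± 19.9) in normoxia, 451, 405 and 362 (406 ± 44.7) in WT SuHx and 454, 447 and 388 (429.7 ± 36.7) in SuHx labelled Ahr-KO. Those groups overlap, and the estimate for Lig1 was 0.08 (95% interval -0.20 to 0.36). Rpa2, a subunit of the protein that coats single-stranded DNA, stood at 421, 373 and 399 (398 ± 24.1) in normoxia, 608, 488 and 485 (527 ± 69.8) in WT SuHx and 564, 646 and 570.0 (593 ± 45.5) in SuHx labelled Ahr-KO. Every SuHx library was above normoxia, yet Rpa2 was not called in WT lung (log2 change 0.40 ± 0.12, adjusted p = 0.0615).

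Tk1, the thymidine kinase of cells in S phase, led the deoxynucleotide genes with 342, 237 and 295 (291 ± 52.8) in normoxia, 976, 979.9 and 948 (968 ± 17.7) in WT SuHx and 1049, 1354 and 1165 (1189.7 ± 154) in SuHx labelled Ahr-KO. The lowest SuHx library was far above the highest normoxia library, and Tk1 rose 3.35-fold (log2 change 1.75 ± 0.15, adjusted p = 0.000306). Rrm1, the large subunit of ribonucleotide reductase, measured 878, 772 and 930.2 (860.2 ± 80.6) in normoxia, 1742, 1566 and 1766 (1691 ± 109) in WT SuHx and 1455, 1748 and 1620.0 (1608 ± 147) in SuHx labelled Ahr-KO. It rose 1.97-fold in WT lung, again without overlap (log2 change 0.98 ± 0.11, adjusted p = 0.000732). Rrm2, the small subunit of the same enzyme, rose 2.11-fold (adjusted p = 0.033), from normoxia lungs that differed among themselves (481, 208 and 348), and lost the call in 8 of 18 alternative settings. Tyms, thymidylate synthase, had 971, 871 and 970.1 (937 ± 57.3) in normoxia, 1131, 1382 and 1018 (1177 ± 186) in WT SuHx and 1625, 1532 and 1525 (1561 ± 56) in SuHx labelled Ahr-KO. The 3 groups of Tyms did not overlap, but the step from normoxia to WT SuHx was not called (log2 change 0.32 ± 0.12, adjusted p = 0.0967).

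All 3 chromatin genes rose. Uhrf1, which brings the maintenance DNA methyltransferase to newly copied DNA, gave 173, 107 and 127 (136 ± 34.3) in normoxia, 619.6, 629 and 609.9 (619 ± 9.33) in WT SuHx and 815, 916 and 706 (812 ± 105) in SuHx labelled Ahr-KO. The WT SuHx libraries lay close together and far above normoxia, at 4.64-fold (log2 change 2.21 ± 0.18, adjusted p = 0.000283). Chaf1a and Chaf1b are subunits of the chaperone that deposits histones behind the fork. Chaf1a gave 443, 366 and 337 (382 ± 55) in normoxia, 595, 607 and 727 (643 ± 73.2) in WT SuHx and 649, 688 and 669 (669 ± 19.5) in SuHx labelled Ahr-KO. It rose 1.69-fold (log2 change 0.75 ± 0.13, adjusted p = 0.00664), and Chaf1b, from a low normoxia signal of 20.7 ± 3.62, rose 4.65-fold (adjusted p = 0.00113).

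Of the G1/S genes, E2f1, a transcription factor that drives many replication genes, gave 292, 213 and 215 (239.9 ± 45.1) in normoxia, 549.6, 457 and 653 (553 ± 98.3) in WT SuHx and 608, 664 and 657 (643 ± 30.4) in SuHx labelled Ahr-KO. It rose 2.30-fold, with every SuHx library above normoxia (log2 change 1.20 ± 0.17, adjusted p = 0.0023). The cyclin E genes were not called. Ccne1 gave 1059, 1167 and 1002 (1076 ± 83.9) in normoxia, 1139, 1092 and 1302 (1178 ± 110.1) in WT SuHx and 1265, 1286 and 1134 (1228 ± 82) in SuHx labelled Ahr-KO, with groups that overlap (log2 change 0.13 ± 0.10, adjusted p = 0.414). Ccne2 gave 313, 403 and 264 (327 ± 70.4) in normoxia, 499, 511 and 383 (464 ± 70.5) in WT SuHx and 484, 592 and 452 (509 ± 73.5) in SuHx labelled Ahr-KO. WT SuHx 2 was within the normoxia range, and the estimate was 0.52 (95% interval 0.10 to 0.94, adjusted p = 0.0946).

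The SuHx lungs labelled Ahr-KO, set against the same WT normoxia lungs, gave 34 of the 43 higher, 0 lower and 9 not called, where 5.95% of all tested genes were higher and 3.8% lower (9.75% in either direction). The Ahr-KO label and SuHx change together in this comparison, so their parts cannot be told apart. With libraries scaled to the same total signal, the higher and lower calls over all genes went from 906 and 579 to 1012 and 382, and those of the 43 to 35 and 0. The median of the 43 was 1.32, against -0.03 over all genes. In 36 every SuHx library was above normoxia (15.1% of all genes) and in 1, the Orc1 row, below (17.9%). Because both SuHx groups were compared with the same normoxia lungs, their lists of calls are not independent. Listed side by side, 31 genes were called higher than normoxia in both, Pola2 and Rfc2 in WT lung alone, and Pola1, Rpa2 and Tyms in the lungs labelled Ahr-KO alone. None of these 5 was called between the SuHx groups, so a difference in call is not a tested difference in response.

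Against WT normoxia lung, Uhrf1 was 6.05-fold higher in the SuHx lungs labelled Ahr-KO (log2 change 2.60 ± 0.18, adjusted p = 0.000114), Cdc6 6.02-fold, Mcm10 5.48-fold and Mcm5 5.09-fold. In WT SuHx lung these genes were 4.64-fold, 4.65-fold, 4.04-fold and 4.76-fold above normoxia in that order. In the lungs labelled Ahr-KO, Tyms was 1.67-fold higher than normoxia (log2 change 0.74 ± 0.12, adjusted p = 0.00449), Pola1 1.68-fold (adjusted p = 0.019) and Rpa2 1.49-fold (adjusted p = 0.0199). Rfc2 gave a log2 fold change of 0.52 (adjusted p = 0.0745) and Pola2 of 0.43 (adjusted p = 0.215), both without a call. Gins4, Orc1, Rfc4, Pold2, Lig1, Ccne1 and Ccne2 were called in neither SuHx group against normoxia, with Ccne2 nearest (adjusted p = 0.0583).

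**Figure D3:**
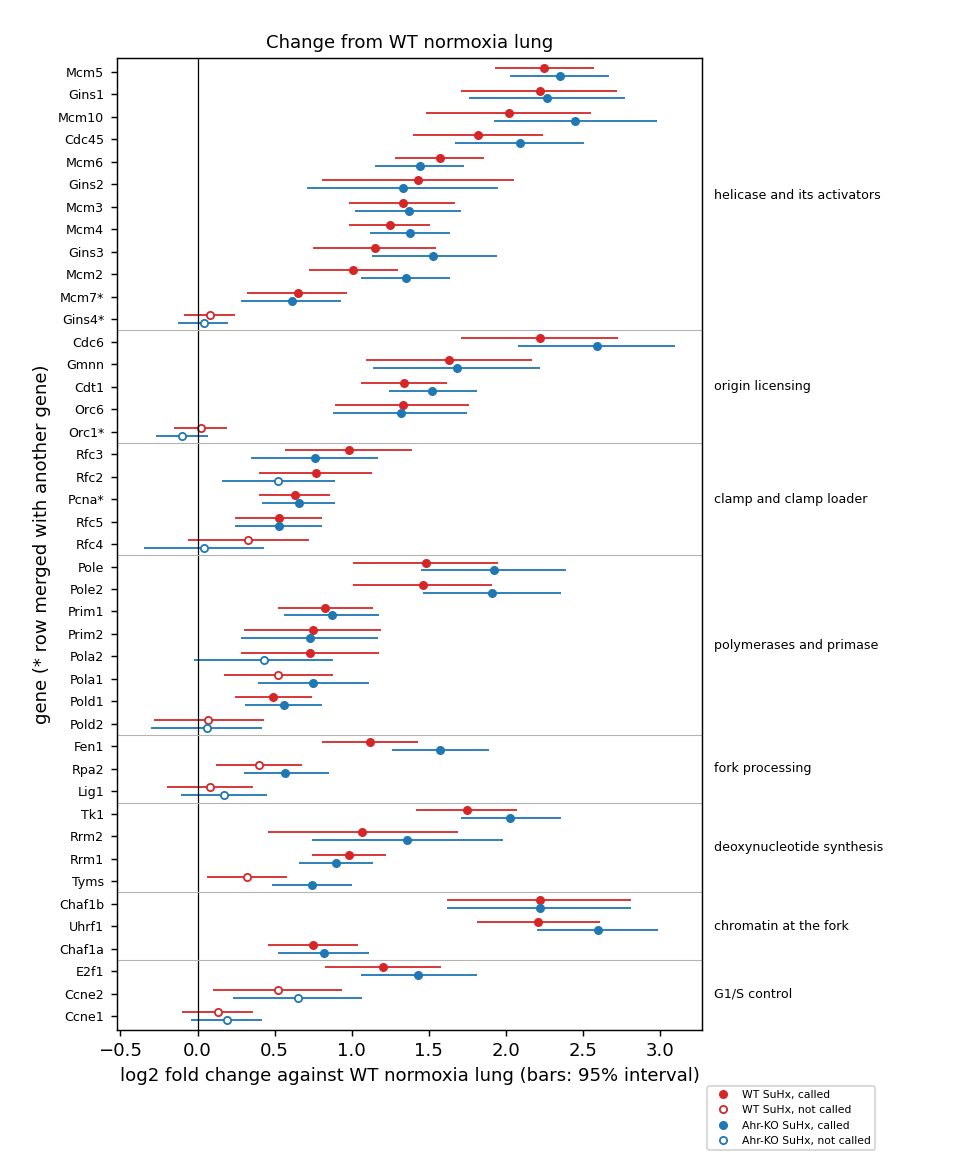
Log2 fold change against WT normoxia lung (horizontal axis) of each replication gene (vertical axis, by role) in WT SuHx lung (red) and in SuHx lung labelled Ahr-KO (blue), with 95% intervals as bars and filled points for genes called at an adjusted p under 0.05. Both colours lie to the right of 0 for nearly all genes, with Gins4, Orc1, Pold2, Lig1 and Ccne1 at or near 0. Rfc4 is near 0 in the lungs labelled Ahr-KO only (0.04, against 0.33 in WT SuHx).

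The lungs labelled Ahr-KO were then set against WT SuHx lung to ask whether these genes differed between the genotypes under SuHx. Lungs labelled Ahr-KO without SuHx were not analysed here, so a difference in the response to SuHx and one that was there before cannot be told apart. None of the 43 was called by limma, where 0.499% of all tested genes (76) were called in either direction. At an unadjusted p under 0.05 there were 4 of the 43, all higher in the lungs labelled Ahr-KO, while 13.6% of all tested genes passed that mark. These 4 were Fen1 (log2 fold change 0.46, adjusted p = 0.21), Pole2 (0.45, adjusted p = 0.361), Tyms (0.42, adjusted p = 0.176) and Mcm2 (0.34, adjusted p = 0.302). The median over the 43 was 0.06, against 0.02 over all genes. Libraries did not overlap in 11 of the 43 with the Ahr-KO label higher (11.7% of all genes) and in 1, the Orc1 row, with it lower (10.2%). The summed signal of heart muscle genes was 5721 to 25378 in the lungs labelled Ahr-KO against 2365 to 3276 in WT SuHx lung, and 9 of 12 had no overlap between these groups with the label higher (median log2 difference 3.09), though limma called none (7 at an unadjusted p under 0.05). Of these genes, Myh6, Myl2 and Nppa were at 0 in all WT SuHx lungs, so their log2 differences depend on the 1 added to the signal. The part of heart muscle RNA in the values of the 43 was not tested.

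A missed threshold does not show that the genotypes are alike under SuHx, and the intervals give what these 3 against 3 libraries allow. Over the 43 genes the 95% intervals lay between -0.75 and 0.97, so each excluded a log2 difference of 1 in either direction. They ran -0.22 to 0.41 for Mcm5, -0.10 to 0.47 for Cdt1, -0.20 to 0.26 for Pcna, -0.31 to 0.16 for Rrm1 and -0.23 to 0.35 for Chaf1a. Wider were those of Mcm10 (-0.09 to 0.97), Pole (-0.03 to 0.91), Rrm2 (-0.33 to 0.91) and Pola2 (-0.75 to 0.15). The clamp loader estimates were below 0 for Rfc2 (-0.24), Rfc3 (-0.22) and Rfc4 (-0.29), none called, and Tk1 stood at 0.29 (95% interval -0.04 to 0.62). Within the group labelled Ahr-KO, library 1 held the highest value for 29 of the 43 genes and library 0 for 3.

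**Figure D4:**
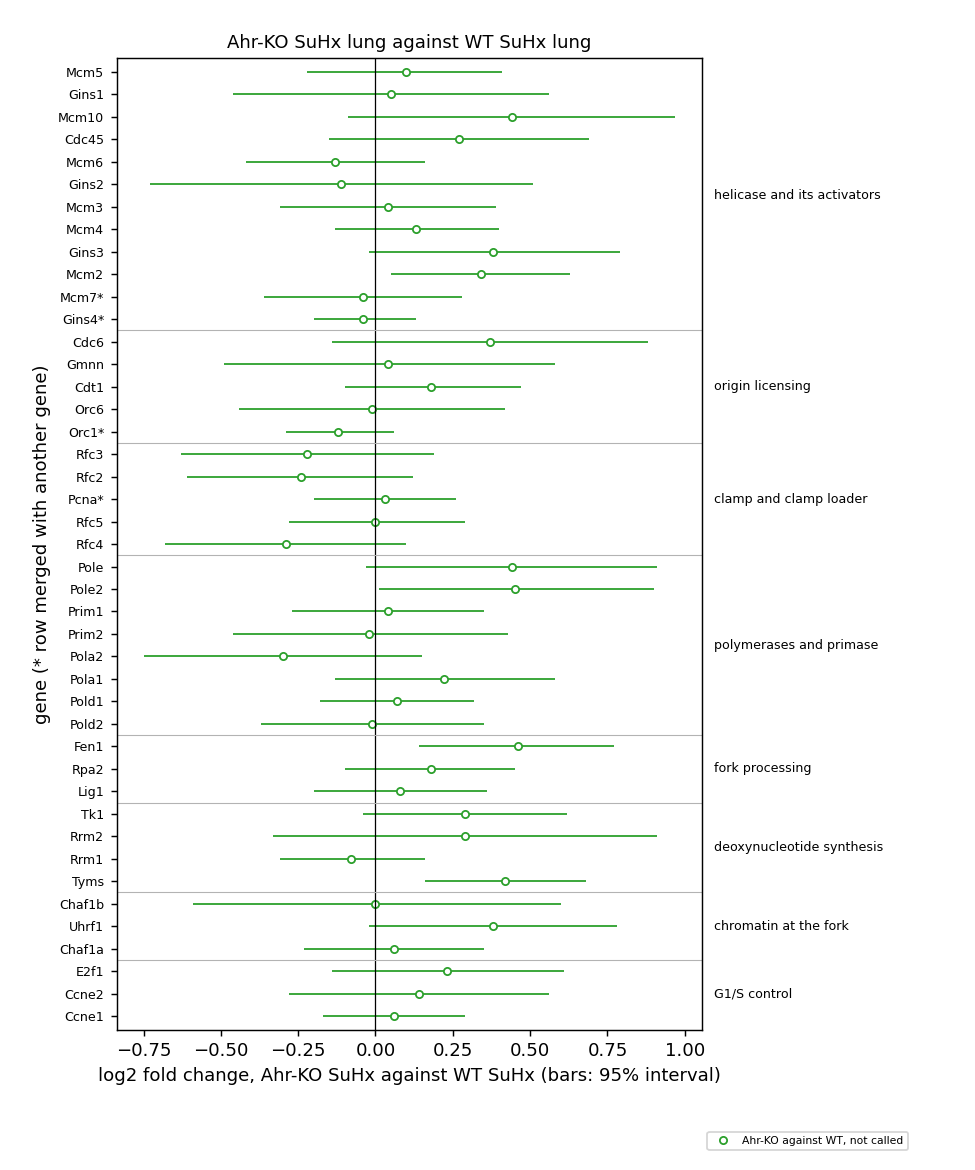
Log2 fold change of SuHx lung labelled Ahr-KO against WT SuHx lung (horizontal axis) for each replication gene (vertical axis, by role), with 95% intervals as bars. No gene was called, so all points are open, and all intervals lie between -0.75 and 0.97.

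The libraries labelled as ECs, the cell type that lines the vessels, were compared with WT normoxia lung to show the level of these genes in them. Against a background where 26.1% of all 15186 tested genes were higher and 30.1% lower, 15 of the 43 were higher in ECs, 6 lower and 22 not called. The median log2 difference was 0.14, against -0.05 over all genes. These directions depended on scaling: with the same total signal in every library, the median of all genes went to -0.29 and that of the 43 to -0.10, with 9 called higher and 10 lower. Over all genes that scaling gave 2816 higher and 6016 lower in place of 3969 and 4570. Quantile normalization moved the 43 the other way, with a median of 0.61 and 26 higher and 6 lower, while over all genes it gave a median of 0.01 and 4140 higher and 4067 lower. Higher here and in all 15 alternatives other than the limit on fold change and the suffix block were Mcm3, Mcm4, Cdt1, Pcna, Rfc3, Rfc4, Fen1, Rpa2 and Tk1, and lower in all of them Gins2, Pola2, Tyms and Ccne1. With a log2 difference of at least 1 also required, Mcm4, Rpa2, Tk1, Tyms and Ccne1 lost their calls.

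Rfc4, not called with SuHx, had the largest positive estimate of the 43 in ECs, at 3778, 4065 and 3022 (3622 ± 539) or 3.86-fold the lung level (log2 change 1.95 ± 0.18, adjusted p = 0.000148). Every EC library was far above all 9 lung libraries. Fen1 gave 902, 742 and 377 (674 ± 269), with EC 2 well below the others (3.01-fold, log2 change 1.59 ± 0.31, adjusted p = 0.0038). Pcna gave 5388, 5858 and 5225 (5490.0 ± 329), above every lung library including the SuHx lungs (2.23-fold, log2 change 1.15 ± 0.08, adjusted p = 6.61e-05). Rfc3, a further clamp loader subunit, gave 589.8, 723 and 580.4 (631 ± 79.8) (log2 change 1.43 ± 0.17, adjusted p = 0.000488), and the helicase ring genes Mcm3 and Mcm4 gave 701, 858 and 926 (828 ± 115) (log2 change 1.30 ± 0.18, adjusted p = 0.000858) and 738, 1195 and 831 (921 ± 242) (log2 change 0.99 ± 0.18, adjusted p = 0.0032). The last of these 9 genes were Cdt1 at 271, 421 and 241 (311 ± 96.4) (log2 change 1.00 ± 0.23, adjusted p = 0.0081), Tk1 at 495, 709 and 519 (574 ± 118) (log2 change 0.97 ± 0.20, adjusted p = 0.00452) and Rpa2 at 701, 712 and 696 (703 ± 7.85) (log2 change 0.82 ± 0.10, adjusted p = 0.000471). Rpa2 exceeded all SuHx lungs, Tk1 lay below all of them and Cdt1 overlapped with them. Pole2 at 67.2, 81.9 and 58.7 (69.3 ± 11.8) lay between normoxia and SuHx lung, and Chaf1a at 526, 499.7 and 599 (541 ± 51.3) above normoxia and up to the lowest SuHx library, both called higher (adjusted p = 0.0488 and 0.0192). Of the same 15 alternatives, 9 ended the call of Pole2 (adjusted p up to 0.159) and 5 that of Chaf1a (up to 0.181). The other called genes had log2 differences of 0.40 for Mcm2 (adjusted p = 0.0106), 0.44 for Mcm6 (0.0291), 0.42 for Prim1 (0.0338) and 0.62 for Pole (0.0358). The call of Mcm2 was lost in 1 of the 15, that of Mcm6 in 5, that of Prim1 in 6 and that of Pole in 6.

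Lower in ECs than in normoxia lung was Gins2, named here after its values were seen, with 27.1, 12.9 and 27.7 (22.6 ± 8.39) against 92.9, 71.9 and 126 (96.8 ± 27.1) (log2 change -2.09 ± 0.38, adjusted p = 0.00284). It stood 4.26-fold lower in ECs although it rose 2.70-fold with SuHx in WT lung. Pola2 gave 313, 349 and 457 (373 ± 74.7) (log2 change -1.21 ± 0.24, adjusted p = 0.00396), Tyms 599, 536 and 642 (592 ± 53) (log2 change -0.66 ± 0.11, adjusted p = 0.00166) and Ccne1 725, 811 and 634 (723 ± 88.5) (log2 change -0.58 ± 0.12, adjusted p = 0.00524). In each of these the EC libraries lay below every lung library. E2f1, at 137, 139.8 and 121 (132 ± 10) (log2 change -0.84 ± 0.18, adjusted p = 0.00683), and Pold2, at 219, 204 and 237 (220.0 ± 16.5) (log2 change -0.64 ± 0.18, adjusted p = 0.0184), were lower too, but their calls were lost in 1 and 5 of the 15 alternatives in that order.

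Of the 31 genes called higher in both SuHx groups, 13 were higher in ECs, 2 lower and 16 not called, all against the same normoxia lungs. Mcm5 was 202, 222 and 219.7 (214 ± 11.1), within the range of the normoxia lungs, and Uhrf1 was 154, 136 and 122 (137 ± 15.7), overlapping them as well. Their log2 differences were 0.10 (95% interval -0.28 to 0.48) and 0.04 (95% interval -0.49 to 0.58). Rrm1 gave 805, 831 and 844 (827 ± 19.8), with an interval of -0.29 to 0.18. Lig1 at 319.9, 311 and 253 (295 ± 36.1), Ccne2 at 296, 266 and 245 (269 ± 25.3), Pola1 at 312, 319 and 353 (328 ± 22), the Gins4 row at 1923, 1983 and 2071 (1992 ± 74.2) and the Orc1 row at 1505, 1514 and 1388 (1469 ± 70.2) were not called either. All EC libraries of Lig1 and of the Orc1 row lay below every normoxia lung, as in 35.1% of all tested genes. Lig1 gained a call in 5 of the 15 alternatives and the Orc1 row in 3. The other genes without a call were Mcm7, Mcm10, Gins1, Gins3, Cdc45, Cdc6, Gmnn, Orc6, Rfc2, Rfc5, Prim2, Pold1, Rrm2 and Chaf1b, with log2 differences from -0.22 (Mcm7) to 0.57 (Mcm10). By role, calls higher and lower in ECs were 4 and 1 of 12 helicase genes and 1 and 0 of 5 licensing genes. For the 5 clamp genes the counts were 3 and 0, and for the 8 polymerase genes 3 and 2. For the 3 fork processing genes they were 2 and 0, and for the 4 deoxynucleotide genes 1 and 1. The 3 chromatin genes gave 1 and 0, and the 3 G1/S genes 0 and 2. Over all tested genes 26.1% were higher and 30.1% lower, and differences between roles were not tested.

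**Figure D5:**
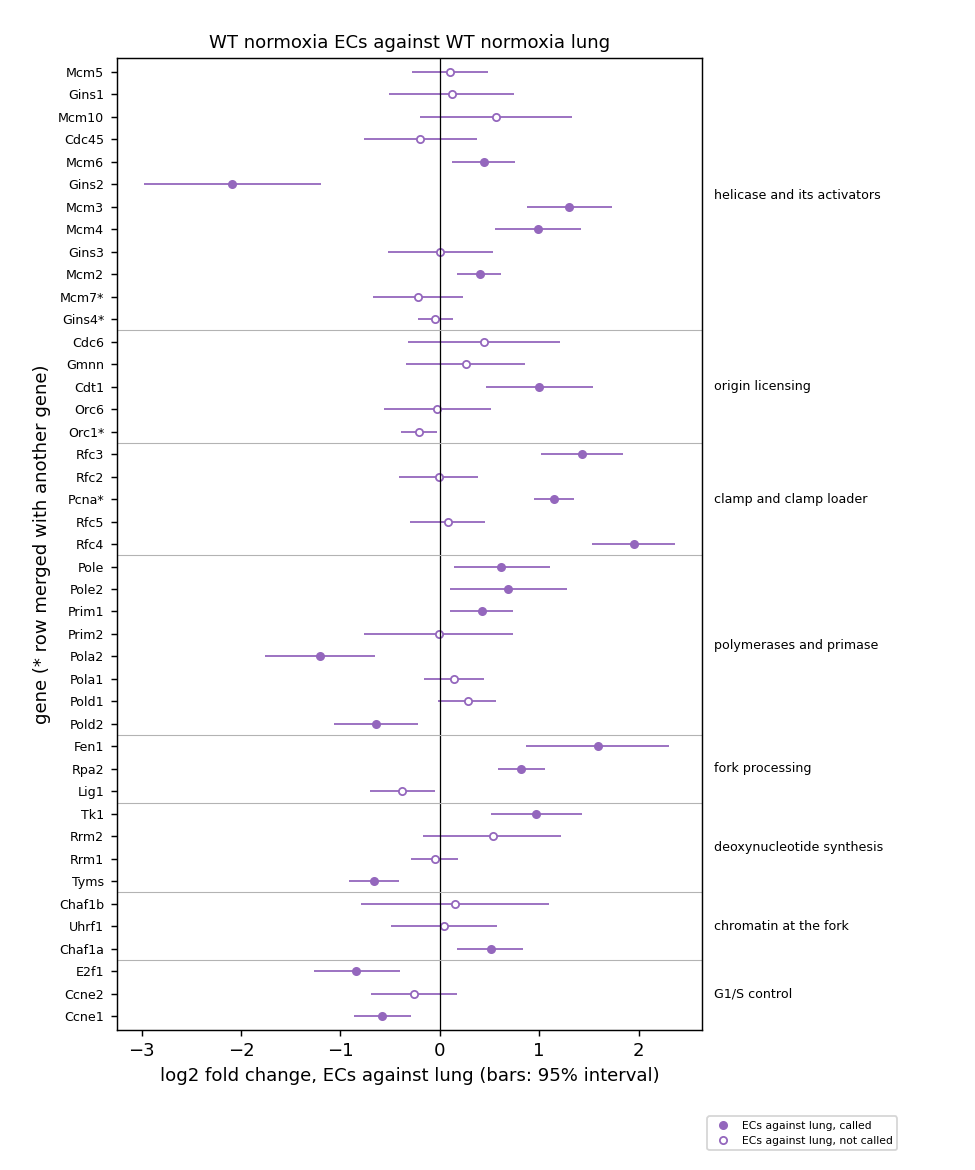
Log2 fold change of WT normoxia ECs against WT normoxia lung (horizontal axis) for each replication gene (vertical axis, by role), with 95% intervals as bars and filled points for genes called at an adjusted p under 0.05. Calls go both ways, from Gins2 at -2.09 to Rfc4 at 1.95, with 22 genes open.

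The EC label was checked with marker lists: 11 of 12 endothelial markers were higher in ECs than in lung (median 1.57) and 10 of 10 alveolar epithelial markers lower. All 7 B cell markers were also higher in ECs, with a median of 2.13, above that of the endothelial markers. So were 5 of 9 T and NK cell markers (1 lower, median 1.36) and 5 of 9 neutrophil markers (median 0.97). Lower were 5 of 9 macrophage markers (0 higher, median -1.46) and 6 of 10 erythroid markers (1 higher, median -1.50). The part of these cells in the EC values of the replication genes was not tested. Of 18 mitosis markers, 0 were higher in ECs and 1 lower, with a median log2 difference of 0.02 and 9 of the 18 above 0. Their summed signal, in which the genes with most signal weigh most, was 1995 to 2897 against 3234 to 7030 in normoxia lung. Most of the sum in normoxia 0 and normoxia 1 was Aurkb alone, whose values in the normoxia lungs are given further below.

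Other genes of the pathway, from longer lists, had medians nearer to 0 with SuHx in WT lung, and lists were not tested against each other. Of 15 further genes for origin recognition and firing, 6 rose and 1 fell (median 0.33). Cdc7, the kinase that fires origins, rose 2.61-fold, its activating subunit Dbf4 2.87-fold, Ticrr, which helps to fire origins, 2.55-fold and Wdhd1, which couples helicase and polymerase, 1.92-fold, whereas Orc3, chosen after its values were seen as the 1 gene that fell, had a log2 fold change of -0.50 (adjusted p = 0.0239). Of 19 other fork genes 6 rose and 0 fell (median 0.31), led by Pclaf, a partner of PCNA (5.02-fold), Esco2, which links sister chromatids through cohesin (6.0-fold), Chtf18 of the alternative clamp loader (2.39-fold) and Rpa1 (1.44-fold).

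Of 10 other genes of deoxynucleotide supply 2 rose, Nme1 1.96-fold and Dctd 2.06-fold, and 0 fell (median 0.30). Among 11 other genes for chromatin at the fork 4 rose and 0 fell (median 0.37), with the histone chaperone gene Asf1b at 5.80-fold, Slbp, which binds histone mRNA, at 2.10-fold, Rbbp7 at 1.39-fold and the merged row of Rbbp4 at 1.30-fold. Of 25 other G1/S regulators 9 rose and 2 fell (median 0.30). Ccna2, cyclin A, rose 2.88-fold, E2f7, a repressor of the E2F family, 4.27-fold, the pocket protein gene Rbl1 1.97-fold and Skp2, which marks cell cycle inhibitors for destruction, 1.98-fold. The 2 that fell, named after their values were seen, were Rbl2 (log2 fold change -0.46) and the merged row of Rb1 (-0.47). In the lungs labelled Ahr-KO the counts of higher and lower against normoxia were 7 and 0, 5 and 0, 4 and 1, 4 and 0, and 10 and 2 for these lists in the same order. Against WT SuHx lung, limma called 0 genes of all 5 lists, with 1, 4, 0, 0 and 3 at an unadjusted p under 0.05.

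Mitosis markers moved with the replication genes: 17 of 18 rose in WT lung (median 2.35) and 17 in the lungs labelled Ahr-KO (median 2.91), among them Bub1 (3.28-fold and 4.29-fold), Birc5 (4.84-fold and 6.16-fold), Nuf2 (6.84-fold and 8.85-fold) and Cdk1 (6.21-fold and 8.96-fold). The exception, Aurkb, was at 3679, 2695 and 481 in the normoxia lungs. Between the SuHx groups 0 of the 18 were called, while 14 had all libraries labelled Ahr-KO above WT, against 11 of the 43 replication genes and 11.7% of all genes. Markers of other cells moved with SuHx as well. Of 11 tested erythroid markers 9 rose in WT lung, with a 12-gene sum of 1889 to 2706 in normoxia, 6337 to 9826 in WT SuHx and 5666 to 9080 in the lungs labelled Ahr-KO, and Gata1 was at 0 in all normoxia lungs. Of 9 tested neutrophil markers 2 rose (9-gene sum 2178 to 4643 in normoxia, 8974 to 13223 in WT SuHx, 8416 to 12360.4 in the lungs labelled Ahr-KO), with Ltf at 0 in all WT SuHx lungs. Smooth muscle and pericyte markers gave 4 higher and 1 lower of 10 (median 0.78, 9-gene sum 18944 to 27180 in normoxia against 35185 to 47499 in WT SuHx). Macrophage markers gave 3 higher of 9 (median -0.06, 9-gene sum 6580.4 to 11606 against 11029.5 to 13327). Endothelial markers gave 1 higher and 2 lower of 12 (11-gene sum 91716 to 96115 against 78107 to 83665), with a median of 0 and 6 of the 12 above 0. Alveolar epithelial markers gave 0 higher and 1 lower of 10 (median -0.37, 1 of the 10 above 0). Their 9-gene sum was 495394 to 719380 in normoxia against 365049 to 535567 in WT SuHx. In the lungs labelled Ahr-KO against normoxia the same list gave 0 higher and 1 lower (median -0.45, 0 of the 10 above 0). The genes with most signal weigh most in such sums. Of 9 T and NK cell and 7 B cell markers none was called by limma, with 1 and 0 at an unadjusted p under 0.05. The part of these cells in the result for the replication genes was not tested.

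Of the 33 calls in WT lung, 26 held in all 18 alternative settings and library removals other than the limit on fold change and the suffix block. The block kept all 26, and the limit of a log2 fold change of at least 1 kept 21 of them, without Pcna, Rfc3, Prim1, Rrm1 and Chaf1a. Those lost at least once were Prim2 (10 of 18), Pola2 (8), Rrm2 (8), Rfc5 (5), Pold1 (3), Mcm7 (2) and Rfc2 (1). Removing any 1 of normoxia 0, normoxia 1, WT SuHx 0 or WT SuHx 2 ended the calls of Pola2 (lost also without Ahr-KO 0 or 1, adjusted p up to 0.134) and Rfc5 (up to 0.0875), and removing any library but WT SuHx 2 or Ahr-KO 2 that of Prim2 (up to 0.128). For Rrm2 the removals were those of normoxia 1, normoxia 2, any WT SuHx library or Ahr-KO 0 (up to 0.106), for Pold1 normoxia 0, WT SuHx 0 and WT SuHx 2, for Mcm7 WT SuHx 0 and 2, and for Rfc2 normoxia 0. Of the 34 calls in the lungs labelled Ahr-KO against normoxia, 25 held in the same 18, of which the fold limit kept 20, without Pcna, Prim1, Rrm1, Tyms and Chaf1a, and the block all. Without Ahr-KO 1 alone 26 were left, with Mcm7, Rfc3, Rfc5, Pola1, Prim2, Pold1, Rpa2 and Rrm2 lost. Without normoxia 2 and Ahr-KO 2, the libraries with the most heart muscle RNA of their groups, 32 of the 43 were called in WT SuHx against normoxia, 0 between the SuHx groups, 31 in the lungs labelled Ahr-KO against normoxia and 17 in ECs.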

How the data were processed

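RNA was measured in 9 lung and 3 EC libraries. Per the labels, lysis was in Trizol, RNA was cleaned on columns and treated with DNase, and libraries followed Illumina protocols. Per the submitters' processing notes, the rn6 build and FastQC were used. For the aligner, counter, strand and normalization: not given in the sources used here. The deposited values are a signal that the authors did not name: judged from the values, estimated counts of reads over a factor for each library, with 79.9% to 81.7% of values within 0.05 of whole reads at 0.745 to 1.25 signal per read. How reads of related, overlapping or antisense genes were shared cannot be checked, so such genes are uncertain. Columns were matched to groups by name, since their suffixes 0 to 2 are not the numbers 1 to 3 of the sample titles.

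Rows with a mean of at least 1 were tested with limma 3.58.1 in R 4.3.3 on log2(signal + 1), which understates changes of low genes (eBayes with trend, two-sided, Benjamini-Hochberg over all tested rows). The 9 lung libraries shared 1 fit, and ECs and normoxia lung another of 6 libraries. The test was checked on simulated data. The 43 genes, the other lists and the tests were chosen with earlier results of these data known. Every replication gene is named with its result in WT SuHx against normoxia and in ECs. Values in each library are given for the gene with the highest mean and the gene with the smallest adjusted p of each role, and for those not called in WT SuHx against normoxia. Other lists give up to 4 called genes with the smallest adjusted p. Alternatives were limma without trend, quantile and total-signal scaling, filters of none and 5, a pseudocount of 0.1, fits of all 12 libraries or only the groups compared, a log2 fold change of at least 1, a suffix block, and left-out libraries.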

Additional observations from a re-analysis of the deposited data

How the results depend on the processing

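Among the 43 replication genes, the counts of calls stayed within 1.5 times in all alternatives for WT SuHx and remained 0 between the SuHx groups; leaving out 1 library gave 27 to 34 for WT SuHx, 0 between the SuHx groups, 26 to 36 for the lungs labelled Ahr-KO against normoxia and 15 to 19 for ECs. A log2 fold change of at least 1 left 22 of 33 (WT SuHx), 22 of 34 (Ahr-KO against normoxia) and 8 of 21 (ECs). Quantile normalization gave 32 in ECs and turned Orc6 there from -0.03 to 0.71 (adjusted p = 0.0375). The cause was not tested. Over all genes, WT SuHx against normoxia gave 3385 with the suffix as replicate block, 748 with the fold limit and 862 to 2380 with 1 library left out, the lowest without WT SuHx 0 (862), normoxia 0 (953), WT SuHx 2 (1115) and normoxia 1 (1148). Between the SuHx groups, all genes gave 47 without trend, 126 with all 12 libraries and 32 to 100 with 1 left out (32 without WT SuHx 0, 39 without WT SuHx 1 or 2, 37 without Ahr-KO 0, 35 without Ahr-KO 1 and 48 without normoxia 0). Ahr-KO against normoxia gave 659 with the fold limit and 721 to 1882 with 1 left out (795 without normoxia 0, 888 without normoxia 1, and 976, 721 and 875 without Ahr-KO 0, 1 and 2), and ECs 4409 and 7239 to 8069. Residual correlations between libraries of different lung groups were -0.0402 to 0.216 for the same suffix and -0.2 to 0.181 for different suffixes. Whether the suffixes pair the libraries was not tested. With the suffix as replicate block the replication genes gave 35 calls in WT SuHx, 0 between the SuHx groups, 36 in Ahr-KO against normoxia and 19 in ECs. Over single genes and settings, 48 results in WT SuHx, 60 in Ahr-KO against normoxia and 53 in ECs lost a call, and 7, 9 and 22 gained one. The lowest normoxia means among the 43, and so the fewest reads, were those of Chaf1b (20.7) and Gins1 (28.4).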
